A study of Rattus norvegicus with 4 samples.

Results

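The 10 genes described here are the D-type cyclins Ccnd1, Ccnd2 and Ccnd3, the E-type cyclins Ccne1 and Ccne2, the A-type and B-type cyclins Ccna2, Ccnb1 and Ccnb2, the kinase gene Cdk1 and the phosphatase gene Cdkn3. They were taken by gene symbol, as every probe set that the platform annotation maps to exactly 1 symbol among these 10. They are 10 of the 14218 genes that single-symbol probe sets name, with 14 of the 31099 probe sets on the array, and 13 of the 14 were bright enough to be tested. The tissue was the ventral lobe of the prostate from male rats of the F344 strain, aged 6 weeks. A group of 4 rats had received the cooked-meat heterocyclic amine PhIP at 300 mg/kg, and the control group of 4 had not. Both were killed 2 days later. Each array held the pooled RNA of 2 rats, so there were 2 PhIP and 2 control arrays, and n below counts pools.

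Cyclins are the regulatory subunits of cyclin-dependent kinases (CDKs). D-type cyclins are made when growth signals act on a cell and, with CDK4 or CDK6, begin to phosphorylate the retinoblastoma protein RB. E-type cyclins, which are E2F target genes, bind CDK2 at the passage from G1 into S phase. Cyclin A2 acts with CDK2 and CDK1 in S phase and G2, and B-type cyclins bind CDK1 to drive mitosis. Transcripts of Ccna2, Ccnb1, Ccnb2 and Cdk1 are held down in resting cells by complexes of RB-related proteins with E2F4, and appear as cells cycle.

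Promoters of cyclin B and Cdk1 genes are known for CHR elements and CCAAT boxes, so the windows of the members that the table of rat promoters from RefSeq holds are shown before the values. The table (assembly GRCr8) held 6 of the 10 members and not Ccnd1, Ccnd2, Ccne2 or Ccna2. Each line gives the 250 bases before the annotated start, in the direction of the gene, with the letters searched for in capitals: the CHR letters (TTTGAA or TTTAAA), the CCAAT box (CCAAT) and E2F letters (TTGGCGC and its variants TTCCCGC, then TTGCCGC, and also TTCGCGC), each on either strand. No match overlapped a match of another motif. The windows are chr20:19265043-19265292 on the plus strand for Cdk1, chr2:33655226-33655475 on the minus strand for Ccnb1, chr8:79981659-79981908 on the minus strand for Ccnb2 and chr15:22502136-22502385 on the plus strand for Cdkn3, where the more upstream of the starts listed was used. For the G1 cyclins they are chr1:99927910-99928159 on the minus strand for Ccne1 and chr9:20897876-20898125 on the minus strand for Ccnd3.
Cdk1: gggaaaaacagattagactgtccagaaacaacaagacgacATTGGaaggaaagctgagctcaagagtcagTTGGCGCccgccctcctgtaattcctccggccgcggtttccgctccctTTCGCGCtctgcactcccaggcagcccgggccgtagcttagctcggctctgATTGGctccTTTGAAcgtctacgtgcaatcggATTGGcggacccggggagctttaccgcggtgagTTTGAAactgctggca
Ccnb1: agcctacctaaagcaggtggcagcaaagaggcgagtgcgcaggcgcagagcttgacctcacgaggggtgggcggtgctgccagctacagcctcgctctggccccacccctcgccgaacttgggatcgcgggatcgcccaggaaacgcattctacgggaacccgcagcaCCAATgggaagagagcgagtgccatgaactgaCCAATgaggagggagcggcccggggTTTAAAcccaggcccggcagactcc
Ccnb2: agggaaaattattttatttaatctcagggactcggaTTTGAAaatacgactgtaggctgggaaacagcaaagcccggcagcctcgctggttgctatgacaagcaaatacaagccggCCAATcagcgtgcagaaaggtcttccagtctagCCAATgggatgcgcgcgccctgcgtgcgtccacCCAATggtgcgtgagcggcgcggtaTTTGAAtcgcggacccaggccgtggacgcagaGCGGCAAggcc
Cdkn3: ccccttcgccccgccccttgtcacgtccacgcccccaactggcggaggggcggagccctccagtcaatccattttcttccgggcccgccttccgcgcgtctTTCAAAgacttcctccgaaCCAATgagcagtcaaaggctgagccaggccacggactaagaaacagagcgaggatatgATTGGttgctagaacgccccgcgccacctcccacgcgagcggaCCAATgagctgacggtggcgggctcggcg
Ccne1: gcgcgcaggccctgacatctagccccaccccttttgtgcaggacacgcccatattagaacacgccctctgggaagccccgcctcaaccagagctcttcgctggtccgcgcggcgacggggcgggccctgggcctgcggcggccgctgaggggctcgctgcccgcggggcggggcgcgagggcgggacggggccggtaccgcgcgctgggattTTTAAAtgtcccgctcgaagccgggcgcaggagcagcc
Ccnd3: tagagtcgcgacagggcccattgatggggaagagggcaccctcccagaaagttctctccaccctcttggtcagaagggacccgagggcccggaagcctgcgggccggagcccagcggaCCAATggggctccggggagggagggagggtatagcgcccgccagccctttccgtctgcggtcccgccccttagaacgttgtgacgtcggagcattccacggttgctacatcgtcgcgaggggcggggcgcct

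All 4 S and G2/M members with a window (Cdk1, Ccnb1, Ccnb2 and Cdkn3) held CHR letters and at least 2 CCAAT boxes. Of all 33469 windows in the table, 25.4% held CHR letters, 34.0% at least 1 CCAAT box, 9.42% at least 2, and 9.04% both motifs. Of the 2 G1 windows, Ccne1 held CHR letters and no CCAAT box, and Ccnd3 held 1 CCAAT box and no CHR letters. E2F letters stood in Cdk1 (2 matches) and Ccnb2 (1 match), against 7.59% of all windows. In Ccnb1, the CCAAT boxes began 82 and 50 bases before the start, 32 bases apart, with the CHR letters at 25. Ccnb2 had 3 boxes in the same direction, each 33 bases from the next, and CHR letters at 43, besides others at 214. In Cdk1, the boxes nearest the start lay on the opposite strand, 32 bases apart, with CHR letters at 72 and 16. Boxes of Cdkn3 lay on both strands, and its CHR letters, at 149, were upstream of all of them. These are matches of letters and not measured binding sites, and for 5 of the 6 genes the RefSeq gene span reaches further upstream than the start used, by 41 to 87 bases in 4 and by 89324 bases in Ccnd3, whose window thus lies far inside the gene span.

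**Figure D1:**
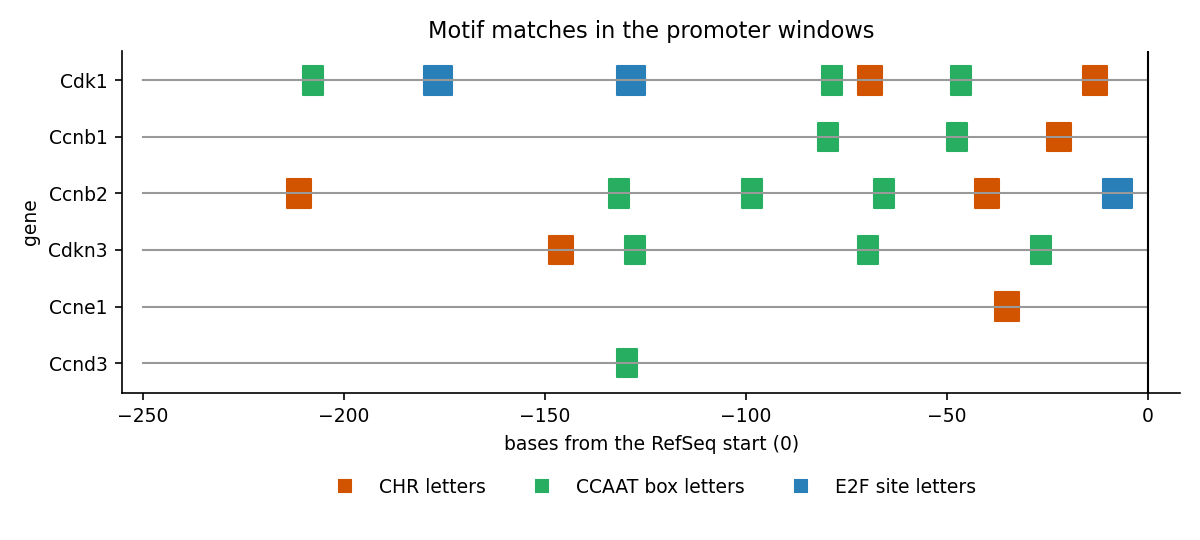
Matches of the searched letters in the 250 bases before the RefSeq start of 6 members, with bases from the start on the horizontal axis and 1 gene per line. CHR letters are orange, CCAAT boxes green and E2F letters blue. Cdk1, Ccnb1, Ccnb2 and Cdkn3 each have CHR letters and 2 or 3 CCAAT boxes, whereas Ccne1 and Ccnd3 have 1 match each; the Ccnd3 window lies inside the RefSeq span of its gene.

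PhIP was set against control to see how cyclins of successive cycle phases differ 2 days after exposure. The G1 cyclins did not move as 1 group. Mean signals of both E-type cyclins were 2.06- and 2.23-fold those of control, within the range of Ccna2, Ccnb1, Ccnb2, Cdk1 and Cdkn3 (1.83- to 2.56-fold), while those of the D-type cyclins were 0.767- to 0.932-fold. The MAS5 signals below are the deposited intensities on a linear scale, comparable between arrays for 1 probe set but not between probe sets. Log2 fold changes are PhIP minus control on log2(signal + 10), which understates changes of dim probe sets.

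At the G1/S step, Ccne1, which encodes cyclin E1, had signals of 91.6 and 124.8 in PhIP, against 43.1 and 53.8 in control. Its log2 fold change was 1.01 ± 0.20 (SE, n = 2 pools per group; limma adjusted p = 0.115). Ccne2, which encodes cyclin E2, had 225.0 and 196.3 in PhIP, against 117.3 and 87.0 in control, a log2 fold change of 0.99 ± 0.17 (limma adjusted p = 0.0929). In both genes each PhIP pool lay above each control pool. A second probe set for Ccne2 (1391681_at) was too dim to be tested, with 7.5 and 16.6 in PhIP and 11.2 and 17.0 in control, where the groups overlap.

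Of the S-phase and mitotic members, Ccna2 had signals of 142.6 and 157.1 in PhIP, against 74.0 and 43.2 in control. Its log2 fold change of 1.26 ± 0.23 (limma adjusted p = 0.0977) was the highest of the 13 tested probe sets, and it was 0.93 without control 2 and 1.59 without control 1. The control pools were far apart for this gene, and both lay under the PhIP pools. Cdk1, the kinase that cyclins A2 and B activate, had 196.6 and 261.0 in PhIP, against 121.5 and 101.1 in control (log2 fold change 0.97 ± 0.17, limma adjusted p = 0.0977). Cdkn3, whose human counterpart removes the activating phosphate from CDK2, had 215.7 and 263.4 in PhIP, against 117.9 and 101.4 in control. Its log2 fold change of 1.06 ± 0.16 had the lowest adjusted p of all members (limma, 0.0617). Neither gene's groups overlapped.

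The B-type cyclins showed the same order of pools. Ccnb2 had 189.9 and 276.6 in PhIP, against 109.2 and 105.4 in control (log2 fold change 1.03 ± 0.19, limma adjusted p = 0.0977). Ccnb1 had 89.1 and 119.1 in PhIP, against 57.6 and 56.3 in control, in its brighter probe set (1370346_at; 0.76 ± 0.18, limma adjusted p = 0.174). The other Ccnb1 probe set (1370345_at) had 73.7 and 93.6 in PhIP and 40.2 and 38.4 in control (0.92 ± 0.19, limma adjusted p = 0.116). The control pools nearly coincided for both genes and the PhIP pools did not, with PhIP 2 the higher in each probe set.

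The D-type cyclins stood apart. Ccnd1, the growth-factor-responsive cyclin D1, had 920.3 and 868.8 in PhIP, against 1030.7 and 1197.0 in control, in its brightest probe set (1383075_at; −0.31 ± 0.10, limma adjusted p = 0.279). Its other probe sets stood at −0.30 ± 0.13 (1371150_at) and −0.27 ± 0.12 (1371643_at), and in all 3 the PhIP pools lay below the control pools. Without control 2 the brightest stood at −0.20 and 1371643_at at −0.13, without PhIP 2 1371150_at stood at −0.19, and without control 1 1371643_at stood at −0.41. Median centring put the 3 between −0.17 and −0.13, and scaling to the hybridization controls between −0.08 and −0.04. Ccnd2, which encodes cyclin D2, had 148.9 and 140.5 in PhIP, against 187.3 and 189.8 in control (−0.36 ± 0.13, limma adjusted p = 0.316), also without overlap. It was −0.22 with median centring and −0.13 with scaling to the hybridization controls. Ccnd3, which encodes cyclin D3, had 362.3 and 309.3 in PhIP, against 345.2 and 375.5 in control (−0.10 ± 0.12, limma adjusted p = 0.748), and its groups overlapped. The sign of Ccnd3 turned with median centring (0.034), with scaling to the hybridization controls (0.13) and without PhIP 2 (0.0088).

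**Figure D2:**
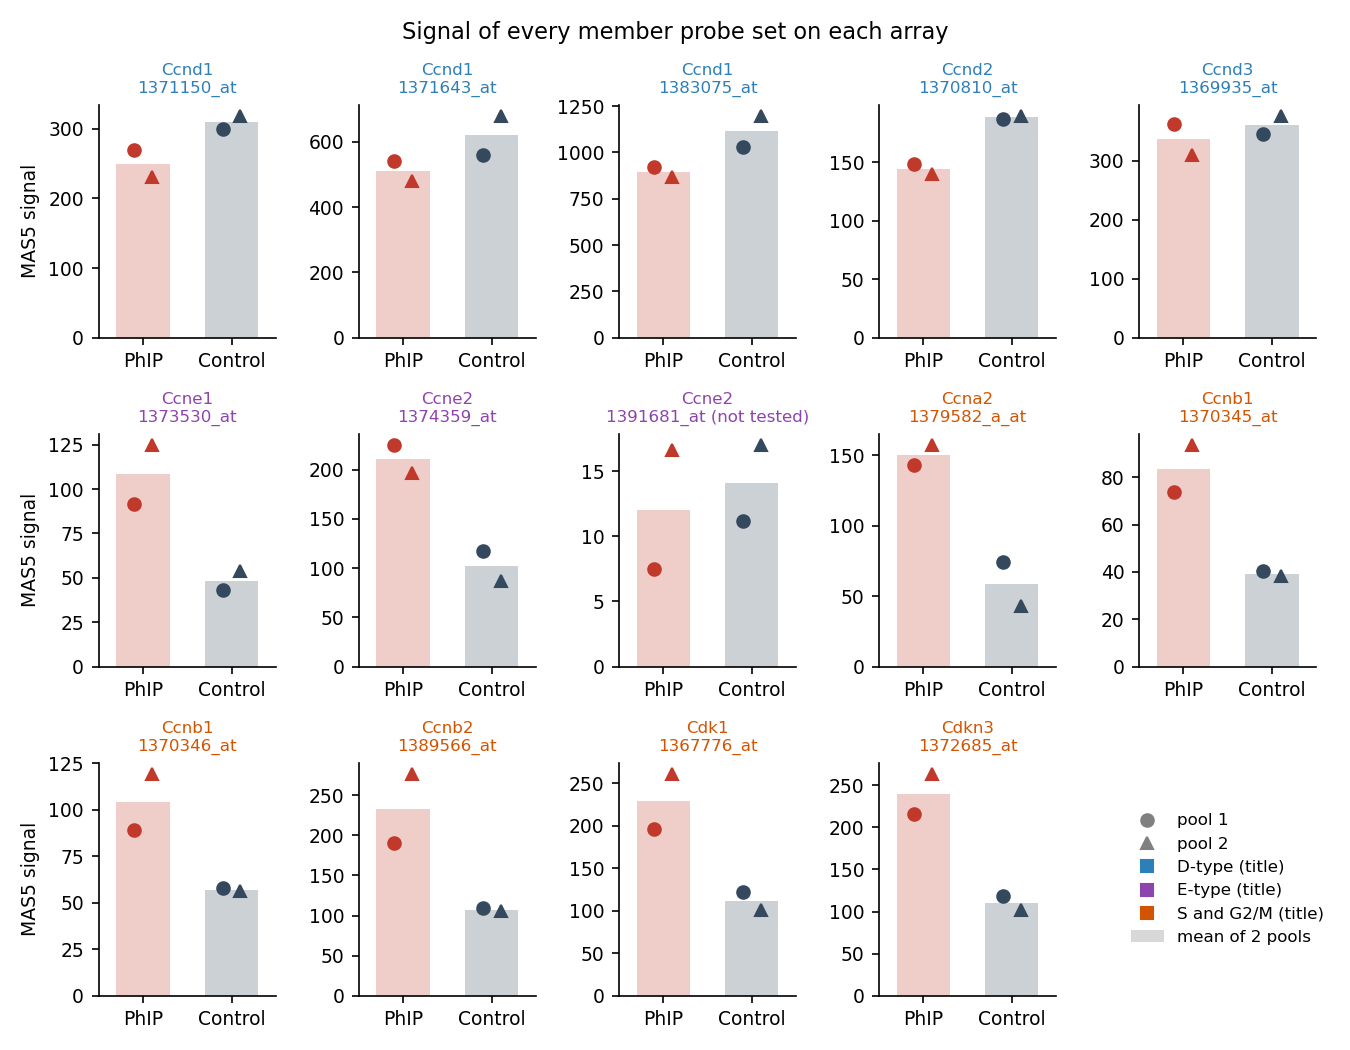
MAS5 signal (linear vertical axes from 0, each panel with its own scale) of the 14 member probe sets, with PhIP left of control. Circles are pool 1, triangles pool 2 and bars the mean of 2 pools; title colours give the class. In the 8 tested probe sets of Ccne1, Ccne2, Ccna2, Ccnb1, Ccnb2, Cdk1 and Cdkn3, both PhIP pools lie above both control pools, and in 4 of the 5 D-type probe sets both lie below.

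None of the 13 tested member probe sets passed an adjusted p of 0.05 (Benjamini-Hochberg over all tested probe sets), a level passed by 0.0268% of the 18625 tested. By the unadjusted limma p, 8 of the 13 lay under 0.05 and higher in PhIP, against 5.36% of all tested probe sets, and 3 were lower, against 7.61%. The 8 are all the tested probe sets of the E-type, S and G2/M members. The 3 are Ccnd1 (1383075_at and 1371150_at) and Ccnd2, so Ccnd1 counts more than once, as Ccnb1 does among the 8. With eBayes without the intensity trend 1 was lower, against 8.29% of all tested, and with a replicate block 2, against 6.9%. Quantile normalization and cyclic loess each gave 4, against 6.41% and 6.36%. Median centring left the 8 and took away all 3 lower ones, with 13.5% of all probe sets higher and 3.46% lower, and so did scaling to the hybridization controls, with 20.8% higher and 1.92% lower. Both PhIP pools lay above both control pools in those 8 probe sets, against 19.8% of all tested, and below them in 4 of the 5 D-type ones, against 26.0%. Among the log2 fold changes of all tested probe sets, the 8 ranked between the 98.9th and 99.9th percentile and the 5 D-type ones between the 13.3rd and 38.7th. With 1 array left out, the spread comes from the remaining pair alone, and the lone array is assumed to vary like it. The PhIP arrays correlated at r = 0.987 and the control arrays at 0.972 over tested probe sets. The adjusted p was then passed by 10 member probe sets without control 1, against 12.5% of all probe sets, by 7 without control 2, against 2.48%, and by 0 when either PhIP array was left out. At an unadjusted p under 0.05, 8 members were higher without PhIP 1 (2.12% of all probe sets) and 7 without PhIP 2 (1.73%). Lower members at that p numbered 4 without control 1 (14.5% of all), 2 without control 2 (8.09%), 0 without PhIP 1 (3.77%) and 0 without PhIP 2 (3.89%). A permutation test of 2 pools against 2 could not go below a two-sided p of 0.333.

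**Figure D3:**
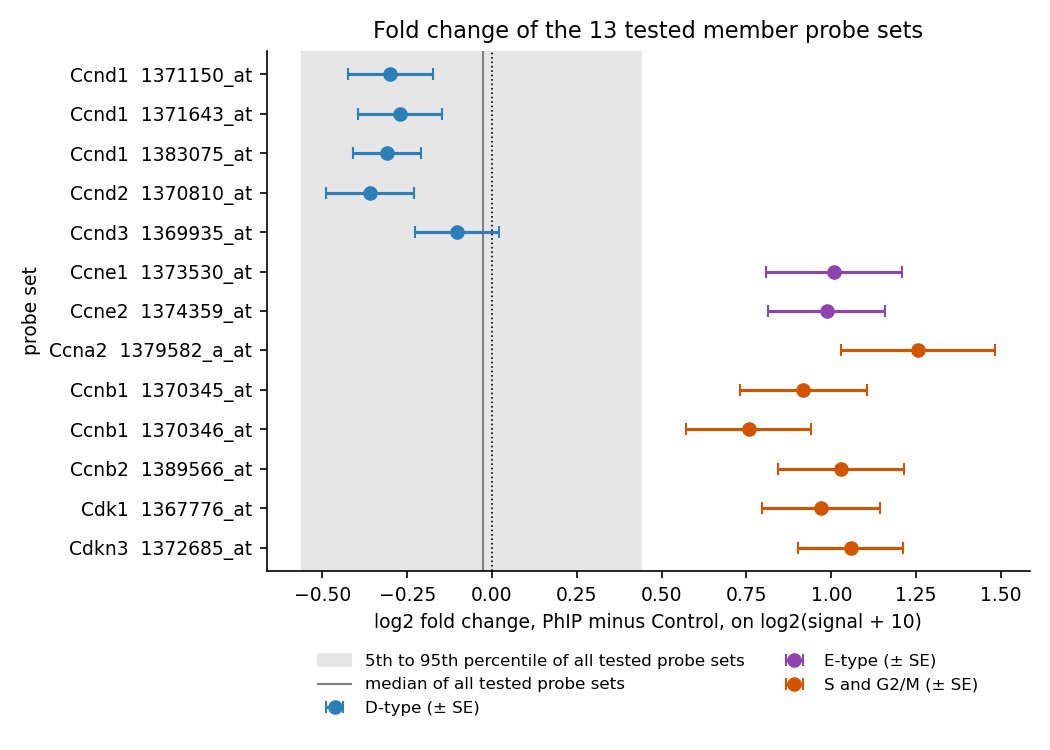
Log2 fold change (PhIP minus control, horizontal axis) with its SE for the 13 tested member probe sets. The grey band runs from the 5th to the 95th percentile of all tested probe sets (−0.56 to 0.44) and the grey line marks their median (−0.03). The E-type, S and G2/M members lie right of the band between 0.76 and 1.26, and the D-type cyclins lie inside it between −0.36 and −0.10, where Ccnd3 turns positive after median centring or scaling to the hybridization controls.

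Taken by phase, with 1 probe set a gene, the median log2 fold change was 1.03 for the 5 S and G2/M members and −0.10 for the 5 G1 cyclins, against −0.03 over all tested probe sets. The G1 median hides a split that was made by family name after the values were seen: 1.00 for the 2 E-type cyclins and −0.31 for the 3 D-type cyclins. The median of all tested probe sets became 0.11 with median centring and 0.20 with scaling to the hybridization controls, settings that shift every value of an array alike and so leave the distance of the members from that median as it was (−0.28 for the D-type and 1.05 for the S and G2/M members).

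A difference between genes within an array cancels any shift of all log2 values of that array. The mean log2 value of the S and G2/M members minus that of the G1 cyclins was −0.64 on PhIP 1 and −0.27 on PhIP 2, against −1.09 on control 1 and −1.37 on control 2. PhIP minus control was 0.77 for this difference, with an SD between pools of 0.26 in PhIP and 0.20 in control (n = 2 each). Only the change between arrays can be read from it, since the probe sets have different brightness. Set against the D-type cyclins alone, the S and G2/M members differed by 1.27 and the E-type cyclins by 1.26 between the groups. Pools of the same group differed too. PhIP 2 was above PhIP 1 in all 6 S and G2/M probe sets and below it in all 5 D-type probe sets, and control 1 was above control 2 in the same 6 and below it in the same 5. The E-type cyclins did not follow this order: Ccne1 was lower on control 1 than on control 2, and Ccne2 (1374359_at) lower on PhIP 2 than on PhIP 1. Relative to the control mean, the S and G2/M members stood at 0.84 on PhIP 1 and 1.18 on PhIP 2, and at 0.12 on control 1 and −0.12 on control 2.

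**Figure D4:**
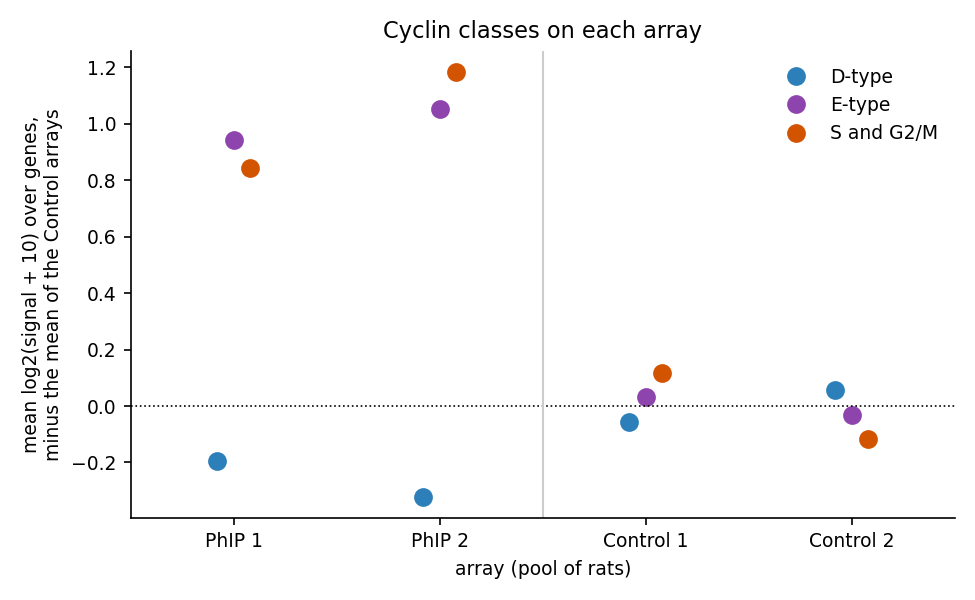
Mean log2(signal + 10) over the genes of each class on each array, minus the mean of the control arrays (vertical axis), with the PhIP arrays left of the control arrays. The E-type and the S and G2/M members lie between 0.84 and 1.18 on the PhIP arrays and between −0.12 and 0.12 on the control arrays. The D-type cyclins lie at −0.19 and −0.32 on the PhIP arrays and at −0.06 and 0.06 on the control arrays.

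Across all 10507 tested genes, the one nearest to Cdk1 in its values over the 4 arrays (Euclidean distance between log2 values centred on each gene's mean) was Prc1, which encodes a bundler of spindle midzone microtubules, at a distance of 0.074. It was followed by Mis18a (0.092), a factor for centromere assembly, Zfp950l1 (0.092), Cdkn3 (0.12) and Gpsm3 (0.14), which encodes a modulator of G protein signalling. Zfp950l1 was dim, with 30.1 and 38.7 in PhIP, against 14.9 and 11.6 in control. So was Gpsm3, with 22.5 and 27.3 in PhIP, against 9.8 and 6.8 in control. Averaged over the control arrays alone, Zfp950l1 and Gpsm3 lay under the filter's cut (24.3 for signal plus 10). They were among the genes compared only because their PhIP values were higher, so their nearness to Cdk1 partly follows from the filter. The added constant of 10 understates changes at such signals, so the distances of Zfp950l1 and Gpsm3 depend on it. Whether both stay near Cdk1 with another constant was not tested. Of the other members, Ccnb2 stood at rank 10 of 10506, Ccnb1 at 31, Ccne1 at 68, Ccne2 at 100 and Ccna2 at 117. The D-type cyclins stood at ranks 6827 (Ccnd3), 8681 (Ccnd1) and 8852 (Ccnd2). Over 4 arrays such a distance mostly reads the difference between the groups.

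The regulators of these kinases were read from lists, 1 probe set a gene, and 0 of their genes passed the adjusted p of 0.05. Their counts at an unadjusted p under 0.05 stand beside 5.36% of all tested probe sets higher and 7.61% lower, and 1 gene in a list of 15 or 16 is near that background. Of 6 tested CDKs and CDK subunits, 1 was higher at an unadjusted p under 0.05 and 0 lower (median log2 fold change 0.04). This was Cks2, a small subunit that docks CDK1 to its substrates, with 219.0 and 269.7 in PhIP, against 120.0 and 69.2 in control (1.32 ± 0.24, limma adjusted p = 0.0977). The partner of the E-type cyclins, Cdk2, stood at 0.30 ± 0.22, and the partner of the D-type cyclins, Cdk4, at −0.13 ± 0.11. The groups overlapped for this Cdk2 probe set (1394320_at), and for Cdk4 both PhIP pools lay below both control pools. A dimmer Cdk2 probe set (1378874_at) had 42.0 and 41.3 in PhIP, against 38.7 and 32.3 in control (0.19 ± 0.20), without overlap.

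Of 5 tested CDK inhibitors, 3 were higher and 1 lower at an unadjusted p under 0.05 (median 0.26). The p53 target Cdkn1a, which encodes p21, an inhibitor of cyclin E and cyclin A kinases, had 347.2 and 466.6 in PhIP, against 138.6 and 117.2 in control (1.59 ± 0.17, limma adjusted p = 0.0517). Cdkn2c, which encodes p18, an inhibitor of CDK4 and CDK6, had 153.6 and 170.7 in PhIP, against 79.5 and 86.5 in control (0.89 ± 0.15, limma adjusted p = 0.0815), while a dim second probe set stood at 0.13 ± 0.25. Cdkn1b, which encodes p27, stood at 0.26 ± 0.10 (limma adjusted p = 0.348). The lower one, named after its value was seen, was Cdkn2d (−0.35 ± 0.14), another inhibitor of CDK4 and CDK6. Of 12 tested other cyclins, 2 were higher and 0 lower (median 0.13): Ccng1 (0.75 ± 0.09, limma adjusted p = 0.0517) and Ccng2 (0.45 ± 0.15), which encode cyclins G1 and G2 and are not drivers of a cycle phase.

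Among 4 tested genes for the enzymes that set the inhibitory phosphates of CDKs, 0 were higher and 1 was lower (median −0.15). This was Cdc25a, the phosphatase that activates CDK2 and CDK1, with 41.1 and 37.8 in PhIP, against 59.0 and 78.4 in control (−0.66 ± 0.20, limma adjusted p = 0.246). Of 16 tested RB and E2F genes, 3 were higher and 1 lower (median 0.17). E2f8, an E2F target and repressor, stood at 0.87 ± 0.20 and Foxm1, the activator of G2/M genes, at 0.53 ± 0.21, whereas E2f4, the E2F of resting cells, stood at −0.35 ± 0.11. The remaining one, Rbl2, an RB relative that pairs with E2F4, stood at 0.29 ± 0.12 and was likewise chosen with its value known. Of 15 tested genes of cyclin destruction, 1 was higher and 0 lower (median 0.02): Ube2c, the ubiquitin-conjugating enzyme that works with the anaphase-promoting complex on cyclins A and B, had 190.7 and 244.6 in PhIP, against 104.8 and 82.3 in control (1.14 ± 0.18, limma adjusted p = 0.0738). Of 10 tested proliferation markers, 7 were higher and 0 lower (median 0.71), with Mki67 at 0.71 ± 0.13, Bub1, a spindle checkpoint kinase, at 1.00 ± 0.19 and Pcna, the clamp of DNA polymerases, at 1.00 ± 0.13.

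**Figure D5:**
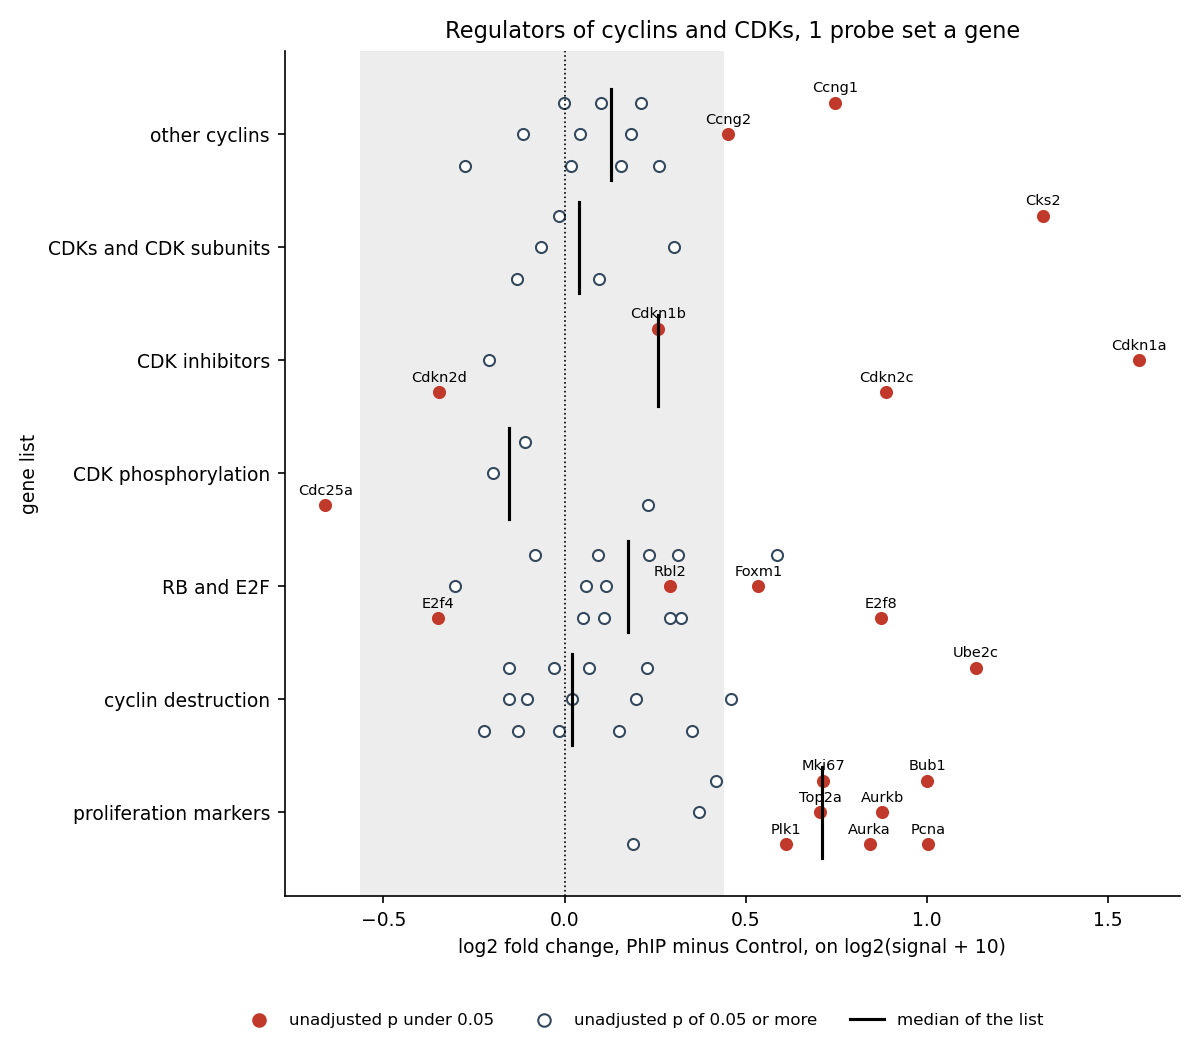
Log2 fold change (PhIP minus control, horizontal axis) of the tested genes of 7 lists, 1 point per gene. Red points had an unadjusted p under 0.05 and are named, black bars are list medians and the grey band holds the 5th to 95th percentile of all tested probe sets. Proliferation markers have a median of 0.71; in the other lists single genes such as Cdkn1a (1.59), Cks2 (1.32) and Ube2c (1.14) lie far right of medians between −0.15 and 0.26.

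The arrays were scaled by the authors to the same trimmed mean. Of the ventral lobe's secretory genes, Pbsn had 4273.0 and 4643.4 in PhIP, against 4898.1 and 4398.8 in control, where the groups overlap. Sbp (8219.2 and 8045.3, against 7243.7 and 6436.1) and Andpro (9991.8 and 10345.2, against 9216.5 and 8807.6) were higher in both PhIP pools. Markers of several cell types differed between the groups. Their counts stand beside 5.36% of all tested probe sets higher and 7.61% lower at an unadjusted p under 0.05. Both PhIP pools lay below both control pools in 26.0% of all tested and above them in 19.8%. Of 8 tested luminal markers, 5 were higher and 0 lower at an unadjusted p under 0.05. Their summed signals were 30351.9 and 31046.9 in PhIP and 28178.8 and 26559.6 in control. Such a sum mostly reads the brightest probe sets of a list, here those of Andpro, Sbp and Pbsn. All 8 smooth muscle markers had both PhIP pools below both control pools, with sums of 3194.1 and 3344.1 in PhIP and 5294.0 and 5200.9 in control. Fibroblast markers summed to 6764.4 and 6793.1 in PhIP and 11258.7 and 8783.4 in control, with 5 of 7 lower and 0 higher. Endothelial markers were lower in 2 of 6, basal epithelial ones in 1 of 4 (a single gene), adipocyte ones in 2 of 3 and skeletal muscle ones in 3 of 6. Skeletal muscle sums were 502.5 and 420.2 in PhIP and 904.4 and 1602.1 in control. On control 1 most of the sum came from Acta1 (658.2) and Tnnc2 (197.7). Tnni2 and Ckm were far higher on control 2 (71.4 and 93.9) than on control 1 (20.2 and 22.6). Tnni2, which is among the 3 lower, passed the filter only through the control arrays, as did Myl1 and Myh4. In 4 of the 6 skeletal muscle markers both PhIP pools lay below both control pools. The groups overlapped for Myl1 and Myh4, which were high on control 2 alone (305.6 and 164.6, against 5.2 and 0.5 on control 1). Of 6 myeloid markers, 2 were higher and 0 lower (median log2 fold change 0.10), although Cd68, at −0.44, had both PhIP pools below both control pools. The 4 lymphocyte markers measured (Cd3e, Cd3d, Cd2 and Cd79b) had signals of at most 13.2 on any array. Control 2 also had the highest ratios of 3′ to 5′ signal, which rise as RNA degrades. For actin the ratios were 3.93 and 3.49 in PhIP, against 4.18 and 5.71 in control, so both control arrays lay above both PhIP arrays. For Gapdh they were 1.45 and 1.44 in PhIP, against 1.34 and 2.06 in control, and the groups overlapped. The part of cell makeup or RNA integrity in the cyclin differences was not tested, and in bulk tissue fewer cells of a type and less RNA per cell cannot be told apart.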

How the data were processed

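The deposited values are MAS5 signal intensities on a linear scale, 1 per probe set and array, made by the authors with MAS5 per the submitters' processing notes (no version named). Pooling of 2 rats per array is per the labels. No scaling target and no detection calls are given in the sources used here. Precision is limited by the number of arrays.

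The 57 manufacturer's controls were left out. Signals were analysed as log2(signal + 10). Probe sets with a mean above the 40th percentile were tested (18625, mean signal plus constant at least 24.3) with limma's moderated test across all of them (R 4.3.3, limma 3.58.1, lmFit, eBayes with intensity trend), two-sided, Benjamini-Hochberg adjusted at 0.05, on 2 residual and 5.67 prior degrees of freedom. Figures used Python 3.11.15 with matplotlib 3.10.9. A gene was represented by its single-symbol probe set with the highest mean. Of 20826 probe sets with 1 symbol, 20764 matched RefSeq (GRCr8) by Entrez identifier. The fit was tested on simulated data.

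Named were all member probe sets, up to 3 genes per list with the largest moderated statistic, Mki67, Pcna and the 5 genes nearest Cdk1. Members and lists were chosen with earlier results of these data known. Marker lists are given by counts and sums. Pbsn, Sbp, Andpro, Cd68, Ckm, Myl1, Myh4 and the lymphocyte markers were named outside the rule, with their values known. Alternatives were other constants, filters, scalings and variance models, a replicate block and leaving out each array.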

Additional observations from a re-analysis of the deposited data

How the results depend on the processing

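The E-type, S and G2/M members were higher in PhIP in all 7 genes under all 17 alternatives. Of their probe sets tested in the main fit, none turned its sign. Most of these settings could not turn one. Filters, variance models and the replicate block leave the fold changes as they are. Since both PhIP pools lay above both control pools, another constant or leaving out 1 array could not reverse the order. Only the other scalings and averaging a gene's probe sets could have done so. The dim second probe set of Ccne2 (1391681_at), tested only with no filter, stood at −0.15. The number of member probe sets past the adjusted p of 0.05 was 0, against 0.0268% of all tested. It was 8 after scaling to the hybridization controls, against 0.886%, and 1 with robust eBayes, against 0.279%. At an unadjusted p under 0.05 it was 11, and between 7 and 12 when 1 array was left out. The S and G2/M median of 1.03 became 1.26 after scaling to the hybridization controls and lay between 0.77 and 1.20 without 1 array. The G1 median of −0.10 became 0.034 after median centring, 0.13 after scaling to the hybridization controls, and lay between −0.21 and 0.0088 without 1 array, the last without PhIP 2. These values are those of Ccnd3, the middle gene of the 5, whose sign turned in the same 3 settings. Median centring and scaling to the hybridization controls turned it by shifting every value of an array alike. Why the arrays differ in these scalings was not tested. The S and G2/M minus G1 difference of 0.77 lay between 0.58 and 0.96. Averaging all probe sets per gene, the E-type median was 0.71 in place of 1.00.

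Over all probe sets, 5 passed the adjusted p, against 0 with no filter, quantile normalization, median centring, eBayes without trend, without PhIP 1 or without PhIP 2, 3 after cyclic loess, 22 with a constant of 20, 35 with the replicate block, 44 with the filter at the 60th percentile, 52 with robust eBayes, 165 after scaling to the hybridization controls, 462 without control 2 and 2334 without control 1. Pools share only a number: the deviations of same-numbered pools correlated at −0.056. With the replicate block, 10 member probe sets had an unadjusted p under 0.05 and 0 passed the adjusted one. No single-animal values underlie the pools, so the spread between rats was not measured.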
